A study of Mus musculus with 50 samples.

Results

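Hearts of FVB mice aged 14 months were set against hearts of FVB mice aged 12 months, the last interval of a cardiac ageing series. The libraries were taken by their titles, 5 of mice aged 14 months and 5 of mice aged 12 months, or 10 of the 50 libraries sequenced, and all genes were examined. FVB hearts aged 4, 8 and 10 months, 5 mice each, are set beside them further below. RNA came from the apex of the left ventricle of female mice, and each library is labelled as a separate mouse. FVB mice are the wild type of the study, so that neither group carried a transgene, and no drug or other treatment is recorded for either. The other strain, Tgαq*44, consists of FVB mice with a constitutively active Gαq in their cardiomyocytes and slowly progressing heart failure (HF). Its values are given only where a change between the same ages is set beside that of FVB mice. Its libraries of all 5 ages nevertheless entered the model of all 50 libraries behind the tests of single genes below, unless a subset is named.

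Ageing of the mammalian heart is known for fibrosis, low-grade inflammation, altered calcium handling and a weaker capacity to burn fatty acids, the main fuel of adult heart muscle. Nearly every cell shows peptides of its own proteins to CD8 T cells on MHC class I molecules, while dendritic cells, macrophages and B cells show ingested peptides to CD4 T cells on MHC class II molecules. Both systems are induced by interferon-gamma, a cytokine made mainly by T cells and natural killer (NK) cells.

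Expression was measured as counts of reads per gene and is given as CPM, counts per 1 M (mega) counts of the library total after TMM scaling. Values of single mice follow the order of mice 1 to 5. Total counts were 9.48 to 21.6 M at 14 months, with a median of 13.0 M, against 12.4 to 16.1 M and a median of 13.2 M at 12 months, and their means did not differ beyond the spread between mice (exact permutation test, two-sided, p = 0.79, n = 5 each; the smallest p this design allows is 0.0079). Mitochondrially encoded genes held 22.6 ± 2.37% of counts at 14 months and 22.5 ± 2.04% at 12 months (SD, n = 5 each; exact permutation p = 0.90). The summed level of the ventricular cardiomyocyte markers, among them Myl2 and Myh6, was 82700.1 to 98417 CPM at 14 months and 78169 to 103756 CPM at 12 months, as a sample of the ventricle should show.

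One 12-month-old mouse, mouse 5, stood apart from its group. The ribosomal RNA gene CT010467.1 (chr17:39846353-39848827, GRCm38; named after its values were seen) took 0.565 to 0.899% of all counts at 14 months, against 2.34 to 3.95% in 12-month-old mice 1 to 4 and 0.501% in 12-month-old mouse 5. Ribosomal RNA carries no poly(A) tail, and the libraries were poly(A)-selected. The 50 libraries were sequenced in 3 runs, and the run of each is not given in the sources used here, so that age and run cannot be told apart. The main counts below are also given without mouse 5, and the values of this mouse are named beside the genes they touch. A further check, chosen after seeing the data, fitted the log2 share of this rRNA gene as a covariate, in all 50 libraries unless stated otherwise. Among the 10 libraries compared, only mouse 5 broke the split of this share by age, so that covariate and age largely coincide. A call lost with the covariate can therefore not be assigned to either of them.

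Differentially expressed genes (DEGs) were those with an absolute log2 fold change over 1 and a Benjamini-Hochberg adjusted p under 0.05 in edgeR's quasi-likelihood F-test over 15129 genes. The log2 fold change is that of 14 over 12 months, and ± after it gives its standard error from the same fit. Between both ages, 280 genes (1.85% of those tested) were DEGs, 95 of them higher (0.628%) and 185 lower (1.22%) at 14 months. With no minimum of fold, 464 genes (3.07%) were higher and 898 (5.94%) lower at an adjusted p under 0.05, and this is the call used for members of gene lists. The median log2 fold change of all genes was 0.02. In CPM, both sets of 5 mice did not overlap in 225 genes that were higher (1.49%) and 465 that were lower (3.07%) at 14 months.

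Without 12-month-old mouse 5, 419 of 15116 genes were DEGs (2.77%), 136 higher (0.900%) and 283 lower (1.87%), and 264 of the 280 DEGs were among them. At an adjusted p alone, 720 genes (4.76%) were then higher and 1189 (7.87%) lower. The place of each 12-month-old mouse was then read in the DEGs found without that mouse, on a scale where 0 is the mean of the other 12-month-old mice and 1 the mean of the 14-month-old mice. In genes lower at 14 months, mice 1 to 4 had medians of -0.214, -0.222, -0.131 and -0.0938, whereas mouse 5 had a median of 0.842 over 283 genes and lay nearer to the 14-month-old mice in 85.5% of them. In genes higher at 14 months, mouse 5 had a median of 0.470, and mouse 1 a nearly equal one of 0.464. Where 12-month-old mice 1 to 4 did not overlap with the 14-month-old mice in the DEGs found without mouse 5, mouse 5 lay within the 14-month range in 45 of 78 higher genes (57.7%) and 132 of 246 lower genes (53.7%). With the rRNA share as a covariate, 59 genes were DEGs (27 higher and 32 lower), all 280 DEGs kept their sign, and their median log2 fold changes were 1.24 for the 95 higher and -0.93 for the 185 lower genes. In the 10 libraries alone, this covariate left 1 DEG, a lower one, and 90 of the 95 higher and 158 of the 185 lower genes kept their sign, with medians of 1.30 and -0.73. Without the rRNA gene in the table, 281 genes were DEGs.

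**Figure D1:**
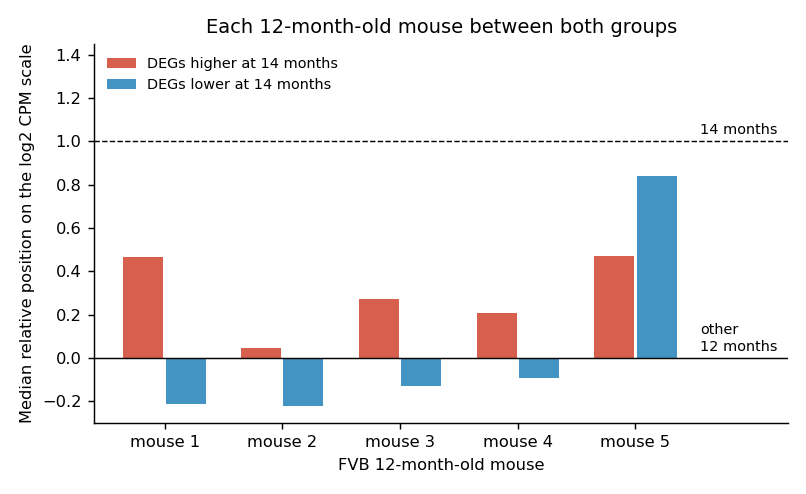
Median relative position of each 12-month-old FVB mouse (x axis) on the log2 CPM scale (y axis, no unit), where 0 is the mean of the other 12-month-old mice and the dashed line at 1 the mean of the 14-month-old mice. Red bars are DEGs higher and blue bars DEGs lower at 14 months, each set found without the mouse shown. Mouse 5 stands at 0.842 in the lower genes, and mice 1 to 4 stand below 0.

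Many genes of antigen presentation were higher in 14-month-old hearts. Of the 8 genes listed for MHC class II presentation, 5 were higher and none lower (62.5% against the 3.07% of all genes), with a median log2 fold change of 1.14 over the list. Cd74 encodes the invariant chain, the chaperone of newly made class II molecules. It had 195, 417, 338, 492 and 643 CPM at 14 months, against 187, 124, 156, 95.8 and 136 CPM at 12 months. The lowest 14-month-old mouse, mouse 1, was just above the highest 12-month-old mouse, and the other four 14-month-old mice were well above it (log2 fold change 1.58 ± 0.30, edgeR adjusted p = 0.00021). H2-DMa, which helps to load the peptide, had 6.72, 16.4, 21.9, 19.5 and 30.7 CPM at 14 months, against 7.82, 6.56, 7.10, 4.58 and 4.98 CPM at 12 months. Only 14-month-old mouse 1 lay within the 12-month range of H2-DMa (log2 fold change 1.62 ± 0.29, edgeR adjusted p = 0.0001). H2-Ab1, a chain of the class II molecule itself, had 42.4 ± 15.9 CPM at 14 months against 16.6 ± 6.21 CPM at 12 months (SD, n = 5 each; log2 fold change 1.35 ± 0.33, edgeR adjusted p = 0.005). Ctss, a protease that trims the invariant chain, and H2-Aa were the other members called. H2-Ob, part of a complex that restrains H2-DM and no member of the list, had 1.11, 1.75, 1.97, 2.68 and 1.79 CPM at 14 months against 0.794, 0.463, 0.816, 0.720 and 0.415 CPM at 12 months and did not overlap between the ages (log2 fold change 1.47 ± 0.33, edgeR adjusted p = 0.002).

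Of the 19 genes for MHC class I presentation, 9 were higher (against the 3.07% of all genes) and none lower, with a median log2 fold change of 0.70 and a positive sign in 18. B2m, the light chain of every class I molecule, had 758, 1104, 1189, 2001 and 1644 CPM at 14 months, against 817, 563, 658, 378 and 698 CPM at 12 months. As for class II genes, the 14-month-old mouse that overlapped with the 12-month-old mice was mouse 1 (log2 fold change 1.10 ± 0.24, edgeR adjusted p = 0.0013). Tap2, a subunit of the transporter that brings peptides into the endoplasmic reticulum, had 8.44, 12.7, 13.8, 13.5 and 17.7 CPM at 14 months against 5.87, 6.10, 6.61, 7.59 and 8.46 CPM at 12 months (log2 fold change 0.94 ± 0.18, edgeR adjusted p = 0.00036). Tapbp, or tapasin, which joins that transporter to the class I molecule, did not overlap and averaged 101 ± 26.3 CPM at 14 months against 58.1 ± 5.40 CPM at 12 months (SD, n = 5 each; log2 fold change 0.80 ± 0.17, edgeR adjusted p = 0.0013). H2-K1, H2-D1, H2-M3, H2-T22 and the immunoproteasome subunits Psmb8 and Psmb9 were also called. Reads of the class I genes, which form a family of near-identical copies, can be shared between members, so that the split among H2 genes is uncertain.

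The class II count did not move without 12-month-old mouse 5 (5 of 8) and was 3 of 8 without 12-month-old mouse 4 and with the rRNA covariate. The class I count was less stable. It was 4 of 19 without 12-month-old mouse 5, 3 without 14-month-old mouse 5 or without 12-month-old mouse 4, 5 without mouse 2 of either age, 5 with the rRNA covariate or in the 10 libraries alone, and 3 in the 25 FVB libraries alone. With the covariate, Cd74 stood at 1.48 (edgeR adjusted p = 0.017), Tapbp at 0.95 (edgeR adjusted p = 0.005) and B2m at 0.81 (edgeR adjusted p = 0.13).

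Of the 45 interferon-responsive genes tested, 11 were higher and none lower at 14 months (median log2 fold change 0.55, positive in 43), where 3.07% of all genes were higher. Irgm1, a GTPase that acts against bacteria inside cells, had 37.2, 78.1, 155, 103 and 135 CPM at 14 months, against 45.5, 37.5, 49.1, 23.4 and 32.1 CPM at 12 months. Iigp1, another member of this GTPase family, had 12.6, 38.9, 66.8, 50.0 and 57.5 CPM at 14 months, against 22.5, 5.87, 17.5, 2.29 and 4.81 CPM at 12 months. In both genes 14-month-old mouse 1 lay within the 12-month range and mice 2 to 5 above it. The log2 fold changes were 1.44 for Irgm1 (standard error 0.32, edgeR adjusted p = 0.0019) and 2.08 for Iigp1 (standard error 0.55, adjusted p = 0.0093). Igtp, Irgm2, Tgtp2, Irf1, Ifit1, Ifit3, Oasl2 and Rtp4 were also called, and Igtp, Irgm2 and Tgtp2 belong to GTPase families whose members resemble each other in sequence.

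The interferon count leaned on single mice. It was 18 of 45 without 14-month-old mouse 1, 10 without 12-month-old mouse 5, 6 without 14-month-old mouse 3, 4 or 5, 5 without 12-month-old mouse 2 or 4, and 1 with the rRNA covariate, where Irgm1 had 1.33 (edgeR adjusted p = 0.068). It was also 2 in a fit of the 25 FVB libraries alone.

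**Figure D2:**
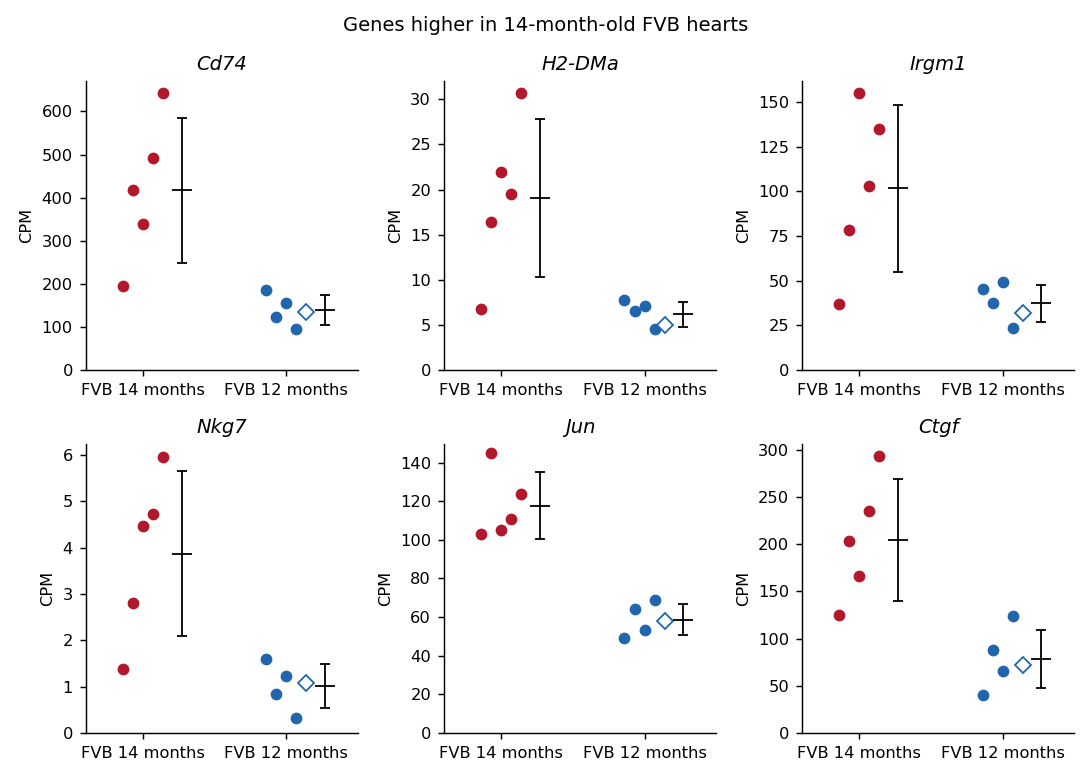
CPM (y axis) of Cd74, H2-DMa, Irgm1, Nkg7, Jun and Ctgf in each FVB mouse aged 14 months (red, left) and 12 months (blue, right), with mean and SD as bars (n = 5 each) and 12-month-old mouse 5 as an open diamond. In Jun, all 14-month-old mice lie between 103 and 145 CPM, above every 12-month-old mouse, and in these 6 genes mouse 5 lies among the 12-month-old mice.

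The promoter windows of Irgm1 and B2m show the letters of an interferon-responsive promoter. The windows are from RefSeq (GRCm38.p6), run from 250 bases before to 50 bases after the start of the transcript, and were searched on both strands for a pair of GAAA units set 2 bases apart, the core of the interferon-stimulated response element, given in capitals. The Irgm1 window (chr11:48871371-48871670, minus strand) holds 2 overlapping matches, at -30 to -15 from the start, and the B2m window (chr2:122147437-122147736, plus strand) holds 1 at -139 to -130.
Irgm1: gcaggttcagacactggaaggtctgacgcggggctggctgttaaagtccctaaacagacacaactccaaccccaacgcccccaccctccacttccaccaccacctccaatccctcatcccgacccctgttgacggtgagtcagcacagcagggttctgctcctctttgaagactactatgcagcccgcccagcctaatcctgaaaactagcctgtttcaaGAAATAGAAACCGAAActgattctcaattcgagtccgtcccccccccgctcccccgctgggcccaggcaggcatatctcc
B2m: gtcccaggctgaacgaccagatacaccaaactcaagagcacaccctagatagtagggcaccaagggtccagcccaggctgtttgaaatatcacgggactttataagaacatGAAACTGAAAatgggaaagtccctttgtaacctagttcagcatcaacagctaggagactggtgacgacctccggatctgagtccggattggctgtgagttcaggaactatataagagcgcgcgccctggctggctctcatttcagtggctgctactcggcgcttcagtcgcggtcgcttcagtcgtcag

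This motif is in 1131 of 32851 windows (3.44%) and in 410 of 10999 genes tested that have a window (3.73%). Among the interferon-responsive genes it is in 6 of the 8 called genes and 14 of the 23 uncalled genes with a window. A match describes the letters of the window only.

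Markers of cytotoxic lymphocytes were also higher at 14 months, at low levels. All 4 NK and cytotoxic cell markers that passed the filter on low counts, of 9 listed, were called higher, and 5 of 10 T cell markers tested (14 listed). Of all genes, 3.07% were higher. The filter asks for over 0.5 CPM in more than 3 libraries of at least 1 group. Of both groups compared, Gzmb met it only at 14 months, where it was high, so that the share of NK markers called depends in part on the filter. H2-Ob above and Grap2 below also met it, of both groups, only at 14 months, so that their calls depend in part on the filter as well. Nkg7, a protein of cytotoxic granules, had 1.39, 2.80, 4.46, 4.72 and 5.96 CPM at 14 months, against 1.59, 0.849, 1.22, 0.327 and 1.08 CPM at 12 months (log2 fold change 1.92 ± 0.35, edgeR adjusted p = 0.00015). The granule protease Gzmb had 0.0556, 1.75, 1.44, 0.643 and 2.76 CPM at 14 months against 0.489, 0.309, 0.735, 0.0655 and 0.166 CPM at 12 months, so that 14-month-old mouse 1 was below every 12-month-old mouse (log2 fold change 1.94 ± 0.58, edgeR adjusted p = 0.024). Ccl5, a chemokine of activated T and NK cells, and Ncr1, a receptor of NK cells, were the other members. Cd8a, the co-receptor of T cells that recognise MHC class I, had 0.444, 5.60, 1.97, 3.97 and 2.28 CPM at 14 months, against 0.672, 0.695, 1.06, 0.196 and 1.08 CPM at 12 months. Mice 2 to 5 aged 14 months were above all 12-month-old mice and mouse 1 was below most of them (log2 fold change 1.91 ± 0.50, edgeR adjusted p = 0.0099). Lck, the kinase that starts signalling from the T cell receptor, had 4.16 ± 1.59 CPM at 14 months against 1.36 ± 0.496 CPM at 12 months (SD, n = 5 each; log2 fold change 1.61 ± 0.33, edgeR adjusted p = 0.00079), and Cd3e, Cd3g and Trac, parts of that receptor, were called too.

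In the summed level of each list, the NK markers reached 2.17 CPM in 14-month-old mouse 1 and 7.35 to 14.0 CPM in the other 14-month-old mice, against 0.917 to 5.14 CPM at 12 months. The T cell markers summed to 11.8 to 25.9 CPM at 14 months and 9.49 to 12.8 CPM at 12 months. Itgal, the alpha chain of the integrin LFA-1, had 4.61, 9.11, 9.08, 9.87 and 9.20 CPM at 14 months against 3.79, 4.09, 5.06, 3.14 and 3.82 CPM at 12 months (log2 fold change 1.07 ± 0.19, edgeR adjusted p = 9.3e-05). Runx3, a transcription factor of CD8 T and NK cells, had 2.56, 5.34, 4.46, 5.15 and 5.67 CPM at 14 months against 1.59, 1.54, 1.96, 2.49 and 1.24 CPM at 12 months, with no overlap (log2 fold change 1.37 ± 0.27, edgeR adjusted p = 0.00035). Grap2, an adaptor of T cell receptor signalling, had 0.722, 1.75, 1.36, 1.72 and 1.40 CPM at 14 months against 0.672, 0.463, 0.490, 0.458 and 0.498 CPM at 12 months, also with no overlap (log2 fold change 1.37, edgeR adjusted p = 0.00079). In bulk tissue, fewer cells of a type and less RNA per cell cannot be told apart, nor can more of either.

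Without 12-month-old mouse 5, 3 of the 4 NK markers and 4 of the 10 T cell markers were called. The NK count was 1 without 14-month-old mouse 5 or 12-month-old mouse 2 or 4, and 2 without 14-month-old mouse 2 or 3 or 12-month-old mouse 1. The T cell count was 1 without 14-month-old mouse 2, 2 without 14-month-old mouse 4 or 12-month-old mouse 1, and 3 without 14-month-old mouse 5 or 12-month-old mouse 2, 3 or 4. By limma-voom, and by edgeR in the 10 libraries alone, 1 NK and 2 T cell markers were called, and in the 25 FVB libraries alone 2 and 3. With the rRNA covariate, 1 member of each list was called, Nkg7 at 1.69 (edgeR adjusted p = 0.027) and Lck at 1.41 (edgeR adjusted p = 0.048).

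Markers of other leukocytes and of stromal cells gave few calls. Itgal alone was called of 5 monocyte markers (median 0.86), and Flt3 alone of 8 dendritic cell markers (median 0.53). Of 11 macrophage markers, Aif1 alone was called, with 2.17, 0.788, 1.36, 1.18 and 1.94 CPM at 14 months against 1.04, 0.849, 0.653, 0.655 and 0.664 CPM at 12 months (log2 fold change 0.98, edgeR adjusted p = 0.014), and the summed level of the list was 333 to 397 CPM at 14 months against 293 to 317 CPM at 12 months. Aif1 was not called without 14-month-old mouse 5 or with the rRNA covariate. None of 8 B cell and plasma cell markers, 10 fibroblast markers or 6 erythroid markers was called by edgeR's quasi-likelihood test, DESeq2 or limma-voom. At an unadjusted p under 0.05, edgeR gave 3 B cell markers, all higher, and no fibroblast or erythroid marker, and without 12-month-old mouse 5 it called 1 B cell marker higher. In the sum of the B cell list, the 14-month-old mice (27.5 to 33.1 CPM) lay above the 12-month-old mice (13.1 to 22.1 CPM). The fibroblast sums overlapped, at 2396 to 3014 CPM at 14 months and 2437 to 2821 CPM at 12 months. Haemoglobin transcripts took 0.126 ± 0.103% of counts at 14 months and 0.0728 ± 0.0244% at 12 months (SD, n = 5 each; exact permutation p = 0.34).

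Single cytokine genes changed in both directions. Il1b, the inflammatory cytokine IL-1β, had 1.50, 1.31, 1.44, 3.11 and 1.74 CPM at 14 months against 0.550, 0.463, 0.735, 0.851 and 0.581 CPM at 12 months, with no overlap between the ages (log2 fold change 1.47 ± 0.40, edgeR adjusted p = 0.013). Gdf15, a stress-induced cytokine, had 16.2, 23.4, 32.0, 27.6 and 44.1 CPM at 14 months, against 6.84, 13.3, 2.29, 21.6 and 14.8 CPM at 12 months. One 12-month-old mouse, mouse 4, lay within the 14-month range (log2 fold change 1.28 ± 0.39, edgeR adjusted p = 0.028). Cxcl12, a chemokine of endothelial and stromal cells, had 365, 237, 371, 289.9 and 191 CPM at 14 months, against 564, 602, 562, 581 and 552 CPM at 12 months. It was lower in every 14-month-old mouse (log2 fold change -0.98 ± 0.16, edgeR adjusted p = 4.1e-05), and here 12-month-old mouse 5 was level with mice 1 to 4. In all, 4 of 27 chemokines and cytokines were higher and 1, Cxcl12, was lower, where 3.07% of all genes were higher and 5.94% lower. The higher count was 4 also without 12-month-old mouse 5, but 8 without 14-month-old mouse 1, 1 without 14-month-old mouse 5, 2 without 14-month-old mouse 2, 3 or 4 or 12-month-old mouse 4, and 0 with the rRNA covariate, where Cxcl12 alone was called.

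Immediate early genes, transcription factors and their regulators that respond to stimuli within minutes, were higher in part. Of 24 tested, 8 were higher and none lower (median log2 fold change 0.70, positive in 22), where 3.07% of all genes were higher. Jun, a subunit of the factor AP-1, had 103, 145, 105, 111 and 124 CPM at 14 months, against 49.1, 64.2, 53.1, 69.1 and 57.8 CPM at 12 months. The groups did not overlap, and the 14-month mean was 118 ± 17.2 CPM against 58.7 ± 8.10 CPM at 12 months (log2 fold change 1.00 ± 0.18, edgeR adjusted p = 8.8e-05). Egr2, a zinc finger factor, had 1.22, 3.85, 3.18, 2.79 and 4.70 CPM at 14 months, against 0.489, 1.47, 0.735, 1.44 and 0.996 CPM at 12 months, with 14-month-old mouse 1 within the 12-month range (log2 fold change 1.62 ± 0.46, edgeR adjusted p = 0.016). Myc, a driver of growth and ribosome production, had 8.39, 12.2, 11.0, 16.6 and 18.0 CPM at 14 months against 3.73, 6.02, 3.67, 6.15 and 10.7 CPM at 12 months, and 12-month-old mouse 5 was within the 14-month range (log2 fold change 1.13 ± 0.28, edgeR adjusted p = 0.005). Egr1, Btg2, Ier3, Ier5 and Zfp36 were called as well. Phlda1, a gene induced by growth factors, had 20.2, 19.1, 24.0, 20.1 and 21.3 CPM at 14 months against 6.29, 10.0, 13.4, 7.01 and 10.7 CPM at 12 months with no overlap (log2 fold change 1.15 ± 0.23, edgeR adjusted p = 0.00041). Dusp4, a phosphatase that switches off MAP kinases, had 5.94, 6.65, 7.34, 12.5 and 8.96 CPM at 14 months against 2.26, 3.86, 2.04, 5.89 and 4.23 CPM at 12 months, also with no overlap (log2 fold change 1.16 ± 0.30, edgeR adjusted p = 0.0075).

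The count of immediate early genes was 7 without 12-month-old mouse 5, 2 without 14-month-old mouse 5 or 12-month-old mouse 1, 3 without 14-month-old mouse 2 or 12-month-old mouse 3, and 1 with the rRNA covariate, where Jun stood at 0.89 (edgeR adjusted p = 0.013) and Egr2 at 1.73 (edgeR adjusted p = 0.078). The Egr2 window (chr10:67537619-67537918, plus strand, RefSeq, GRCm38.p6), shown because serum-responsive promoters of this family carry CArG boxes, the element bound by serum response factor, holds 1 CArG box at -72 to -63, in capitals.
Egr2: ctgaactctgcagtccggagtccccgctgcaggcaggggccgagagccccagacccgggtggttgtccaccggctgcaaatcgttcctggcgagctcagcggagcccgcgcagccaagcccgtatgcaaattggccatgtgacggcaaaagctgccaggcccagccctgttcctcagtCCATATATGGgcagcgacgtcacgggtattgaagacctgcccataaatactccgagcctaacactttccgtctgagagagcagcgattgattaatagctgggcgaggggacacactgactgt

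Of the 5 Egr2 windows in RefSeq, 4 hold a CArG box, as do 535 of all 32851 windows searched on both strands (1.63%). Among immediate early genes with a window, it is in 2 of 6 called and none of 14 uncalled genes. Sequence outside the windows was not searched, and the Egr2 window shown was picked among those with a box. Here too, a match describes the letters of the window only.

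**Figure D3:**
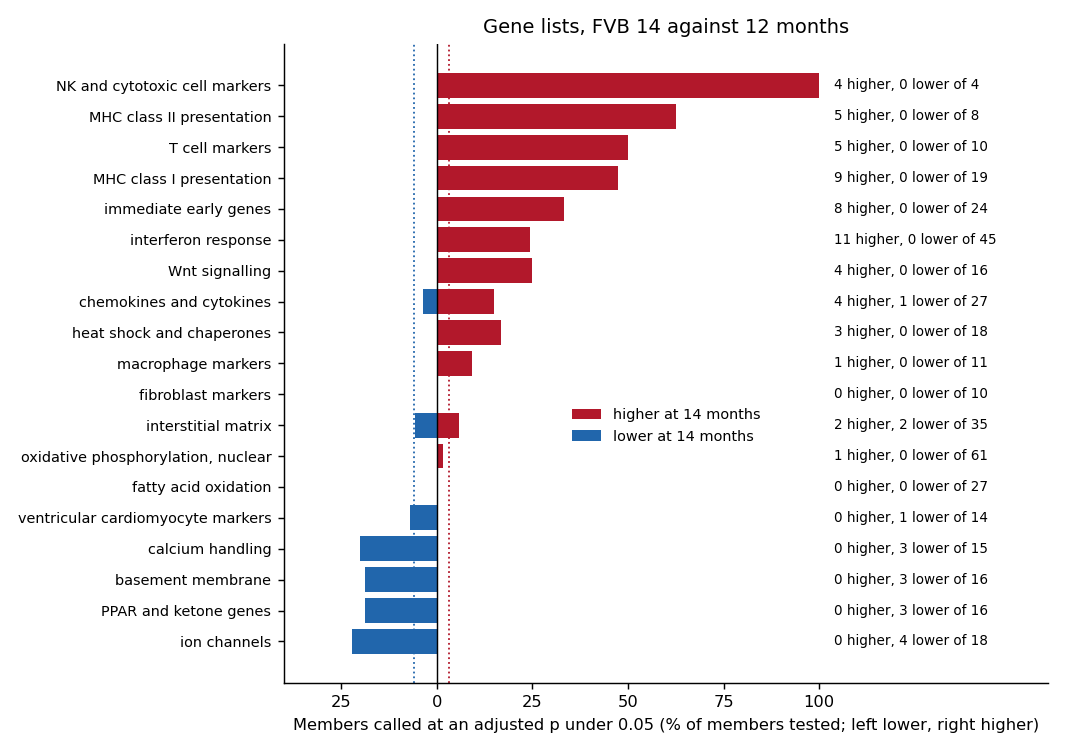
Share of tested members (x axis, percent) called higher (red, right) or lower (blue, left) at an adjusted p under 0.05 in FVB hearts at 14 against 12 months, for 19 gene lists (y axis). Dotted lines mark the shares of all genes, 3.07% higher and 5.94% lower. All 4 NK markers that passed the filter on low counts, of 9 listed, and 5 of 8 MHC class II genes were higher. The NK share depends in part on that filter. No fibroblast marker or fatty acid oxidation gene was called.

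Genes of matrix and Wnt regulation gave single strong calls without a shift of the lists. Ctgf, a matricellular growth factor of fibrosis and a target of TGF-β and YAP, had 125, 204, 166, 235 and 294 CPM at 14 months, against 40.2, 88.2, 65.6, 124 and 72.5 CPM at 12 months. The groups met without overlap between 14-month-old mouse 1 and 12-month-old mouse 4 (log2 fold change 1.39 ± 0.22, edgeR adjusted p = 2.2e-05), and the log2 fold change was 1.36 (edgeR adjusted p = 5.9e-05) without 12-month-old mouse 5 and 1.29 (edgeR adjusted p = 0.0048) with the rRNA covariate. Of 16 Wnt pathway genes, 4 were higher (against the 3.07% of all genes), and they were the secreted antagonists Frzb, Wif1, Sfrp2 and Sfrp4, while the median of the list was 0.12. Sfrp2 had 1.83, 1.93, 1.36, 2.04 and 4.16 CPM at 14 months against 0.978, 1.16, 0.653, 1.31 and 1.16 CPM at 12 months (log2 fold change 1.14 ± 0.29, edgeR adjusted p = 0.0076). Wif1 had 34.7, 37.7, 38.1, 40.0 and 51.0 CPM at 14 months against 17.7, 23.1, 20.8, 23.9 and 29.0 CPM at 12 months (log2 fold change 0.82 ± 0.20, edgeR adjusted p = 0.0046), and neither overlapped between the ages. Frzb had 25.3, 21.7, 22.9, 22.1 and 20.1 CPM at 14 months, against 10.7, 10.2, 8.57, 11.9 and 23.4 CPM at 12 months. Its value in 12-month-old mouse 5 was among those of 14-month-old mice, and the log2 fold change was 0.80 with mouse 5 (edgeR adjusted p = 0.0016) and 1.11 (edgeR adjusted p = 8.8e-07) without it. None of the 4 was called with the rRNA covariate.

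Of 35 interstitial matrix genes tested, Fbln1 and Comp were higher and Eln and Col14a1 lower (median 0.05). Of all genes, 3.07% were higher and 5.94% lower. Ctgf was listed under its other symbol, Ccn2, was not matched by name and is not among these 35. Fbln1, the matrix glycoprotein fibulin 1, had 163, 201, 178, 179 and 291 CPM at 14 months against 87.5, 116, 81.8, 139 and 189 CPM at 12 months (log2 fold change 0.72, edgeR adjusted p = 0.01). Comp, a matrix protein of activated fibroblasts and cartilage, had 1.39, 2.54, 1.82, 1.18 and 2.52 CPM at 14 months against 0.733, 0.617, 1.06, 0.982 and 1.49 CPM at 12 months (log2 fold change 0.98, edgeR adjusted p = 0.031). Eln, the gene of elastin, averaged 5.77 ± 1.37 CPM at 14 months against 9.45 ± 2.88 CPM at 12 months (SD, n = 5 each; log2 fold change -0.70, edgeR adjusted p = 0.016). Col14a1, a collagen of fibril surfaces, averaged 22.7 ± 4.12 CPM at 14 months against 31.5 ± 4.46 CPM at 12 months (SD, n = 5 each; log2 fold change -0.47, edgeR adjusted p = 0.049), and its 12-month-old mouse 5 was at 23.6 CPM among 14-month values. No gene of 23 in TGF-β and BMP signalling was called by edgeR, DESeq2 or limma-voom or had an unadjusted p under 0.05. None of 20 in matrix crosslinking and turnover was called by edgeR or DESeq2, 1 was higher by limma-voom, and at an unadjusted p under 0.05 edgeR gave 2 higher and 1 lower. Without 12-month-old mouse 5, 4 of the 35 interstitial matrix genes and 1 crosslinking gene were higher. None of the 35 was higher without 14-month-old mouse 5 or 12-month-old mouse 1 or 3. With the rRNA covariate, none of the 35 was called in either direction, whereas Ctgf, outside this count, was called higher as given above.

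The study describes a group of cardiac ageing genes activated early in Tgαq*44 hearts, and 8 that it names were examined here. Gdf15, Egr2 and Sfrp2 were higher, as given above. Itga11, a collagen-binding integrin of fibroblasts, had 11.3, 13.7, 14.5, 11.5 and 14.9 CPM at 14 months against 7.03, 8.88, 4.65, 10.2 and 14.4 CPM at 12 months and was not called (log2 fold change 0.55, edgeR adjusted p = 0.076), but it was without 12-month-old mouse 5, at 0.77 (edgeR adjusted p = 0.0062). Cdkn1a, the cell cycle inhibitor p21, had 28.9, 31.3, 33.4, 35.1 and 42.4 CPM at 14 months against 24.3, 43.4, 29.5, 71.4 and 51.5 CPM at 12 months (log2 fold change -0.36, edgeR adjusted p = 0.56). Egr3 (log2 fold change 0.71, edgeR adjusted p = 0.3), Cilp (log2 fold change -0.28, edgeR adjusted p = 0.63) and Timp1 (log2 fold change 0.31, edgeR adjusted p = 0.64) did not pass either. Nrg1 (neuregulin 1), which the study also places in that group, was a DEG with 1.56, 2.28, 2.65, 3.97 and 2.52 CPM at 14 months against 0.611, 1.39, 0.980, 2.03 and 0.996 CPM at 12 months (log2 fold change 1.07 ± 0.31, edgeR adjusted p = 0.019), and 12-month-old mouse 4 overlapped. The group was chosen by the study on libraries that include these mice.

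Of 9 foetal and hypertrophic genes, Ankrd1 and Nppa were higher (median 0.13), and 4 were higher without 12-month-old mouse 5. Of all genes, 3.07% were higher with all mice and 4.76% without that mouse. Ankrd1, a stretch-responsive sarcomere-associated protein, had 1902, 1680.4, 1812, 1932 and 1561 CPM at 14 months, against 1227, 1252, 1135, 804 and 1250.0 CPM at 12 months, with no overlap (log2 fold change 0.65 ± 0.16, edgeR adjusted p = 0.0072). Nppa, the gene of atrial natriuretic peptide, had 78.6, 43.0, 64.5, 94.0 and 110.3 CPM at 14 months, against 24.2, 35.7, 16.9, 45.8 and 63.5 CPM at 12 months, and 12-month-old mice 4 and 5 were within the 14-month range (log2 fold change 1.07 ± 0.36, edgeR adjusted p = 0.048). With the rRNA covariate, Ankrd1 stood at 0.34 (edgeR adjusted p = 0.4) and Nppa at 0.70 (edgeR adjusted p = 0.45). Nppa, Nr2f2 and Tbx5 were the 3 called of 6 atrial markers, and the sum of that list was 115 to 204 CPM at 14 months against 68.5 to 133 CPM at 12 months, with 12-month-old mouse 5 the highest of its group. All 3 were called without that mouse, 1 was called without mouse 1 or 5 at 14 months or any other mouse at 12 months, and none was called with the rRNA covariate. Whether the cut of the apex differed between the ages was not tested. Myom2, an M-band protein of the sarcomere, was higher and had 524 ± 50.0 CPM at 14 months against 379 ± 31.6 CPM at 12 months (SD, n = 5 each; log2 fold change 0.47, edgeR adjusted p = 0.037). Myom1, its paralogue, was lower and had 424 ± 52.9 CPM at 14 months against 689 ± 131 CPM at 12 months (SD, n = 5 each; log2 fold change -0.70, edgeR adjusted p = 8.6e-05).

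Other single genes were higher without overlap. Dnase1l3, a secreted nuclease that degrades DNA of dying cells, had 3.72, 7.88, 6.81, 10.4 and 11.8 CPM at 14 months against 2.81, 2.86, 3.02, 1.90 and 3.49 CPM at 12 months, with no overlap (log2 fold change 1.53 ± 0.26, edgeR adjusted p = 3.6e-05). Zfp385b, a zinc finger protein, had 17.5, 13.7, 18.8, 19.4 and 17.1 CPM at 14 months against 9.59, 11.1, 10.3, 7.73 and 13.3 CPM at 12 months (log2 fold change 0.74 ± 0.13, edgeR adjusted p = 6.5e-05). Ciart, a repressor of the circadian clock, had 8.83, 7.88, 9.91, 10.2 and 10.9 CPM at 14 months against 3.12, 4.24, 4.41, 4.45 and 5.06 CPM at 12 months (log2 fold change 1.17 ± 0.33, edgeR adjusted p = 0.017). It was the only one of 19 clock genes called with all mice, 5 were called without 12-month-old mouse 5, and none without 12-month-old mouse 1. Basp1, a membrane-bound signalling protein, had 1.72, 2.19, 2.95, 1.61 and 1.74 CPM at 14 months against 1.04, 1.39, 1.06, 0.589 and 0.581 CPM at 12 months (log2 fold change 1.12, edgeR adjusted p = 0.0077). Each of these 4 was higher in all 14-month-old mice than in any 12-month-old mouse. Protein-coding DEGs named for their fold change, here and in other paragraphs, had to be free of overlap, so that its absence is no result for them.

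In another set of higher genes, 12-month-old mouse 5 was at or next to the level of the 14-month-old mice. Spint2, an inhibitor of serine proteases, had 40.4, 51.8, 34.1, 39.2 and 57.8 CPM at 14 months, against 21.4, 22.9, 17.6, 23.3 and 37.8 CPM at 12 months (log2 fold change 0.86 ± 0.14, edgeR adjusted p = 2.6e-05). F8a, a small gene also known as the huntingtin partner HAP40, had 21.0, 20.1, 19.6, 19.4 and 24.1 CPM at 14 months, against 7.82, 8.57, 8.33, 9.69 and 18.8 CPM at 12 months (log2 fold change 0.98 ± 0.17, edgeR adjusted p = 5.7e-05). Ndufa8, a subunit of respiratory complex I, had 223, 199, 205, 208 and 166 CPM at 14 months, against 89.5, 98.4, 103, 104 and 208 CPM at 12 months (log2 fold change 0.73 ± 0.14, edgeR adjusted p = 0.00044). Ndufa8 was the only one of 61 nuclear genes of oxidative phosphorylation called, and its log2 fold change was 1.02 (edgeR adjusted p = 1.8e-08) without mouse 5 and 0.45 (edgeR adjusted p = 0.066) with the rRNA covariate. Slc7a5, a carrier of large neutral amino acids, had 14.0, 16.7, 15.7, 14.7 and 19.6 CPM at 14 months against 6.05, 6.87, 4.49, 9.03 and 17.3 CPM at 12 months (log2 fold change 0.90, edgeR adjusted p = 0.0029). Hes1, a repressor downstream of Notch, had 46.0, 47.0, 39.6, 52.4 and 69.7 CPM at 14 months against 16.8, 22.5, 20.8, 28.7 and 54.2 CPM at 12 months (log2 fold change 0.84, edgeR adjusted p = 0.012). Plvap, a protein of endothelial fenestrae, had 11.8, 15.0, 14.8, 12.5 and 26.4 CPM at 14 months against 6.05, 7.18, 4.57, 8.25 and 15.4 CPM at 12 months (log2 fold change 0.97, edgeR adjusted p = 0.0048). In these 6 genes, mice 1 to 4 aged 12 months lay below all 14-month-old mice. Mouse 5 lay within the 14-month range in 5 of them and just below it in F8a.

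The lower genes were led by Hipk2, a nuclear kinase of p53 and stress signalling (chr6:38694390-38876165, GRCm38). Hipk2 had 25.6, 26.3, 36.2, 38.9 and 33.6 CPM at 14 months, against 220.2, 205, 199, 211 and 48.2 CPM at 12 months. The 14-month-old mice were below all 12-month-old mice, yet mouse 5 at 12 months was far closer to them than to mice 1 to 4 (log2 fold change -2.46 ± 0.23, edgeR adjusted p = 2.8e-10). Nt5c1a, a cytosolic nucleotidase that turns AMP into adenosine in muscle, had 1.06, 1.49, 2.04, 2.36 and 1.84 CPM at 14 months, against 24.7, 23.8, 25.0, 25.7 and 2.57 CPM at 12 months, with the same split (log2 fold change -3.56 ± 0.41, edgeR adjusted p = 5.3e-08). Hif1an, the hydroxylase that restrains hypoxia-inducible factor, had 28.2, 26.4, 28.4, 26.7 and 24.9 CPM at 14 months, against 105, 90.2, 89.4, 99.7 and 32.2 CPM at 12 months (log2 fold change -1.63 ± 0.18, edgeR adjusted p = 1.9e-08). Heg1, a transmembrane protein needed for heart and vessel growth, had 71.2, 67.4, 79.0, 79.8 and 55.9 CPM at 14 months, against 266, 259.7, 226, 280.0 and 100.2 CPM at 12 months (log2 fold change -1.68 ± 0.19, edgeR adjusted p = 1.9e-08). In each of these genes mouse 5 was the lowest 12-month-old mouse and the 14-month-old mice were tightly grouped.

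Regulators of fuel use were lower in part. Of 16 PPAR and ketone genes, 3 were lower (18.8%, against the 5.94% of all genes) and none higher, with a median log2 fold change of -0.26. Ppara, the nuclear receptor that drives fatty acid burning in heart muscle, had 11.2, 8.14, 14.7, 12.3 and 7.26 CPM at 14 months, against 53.2, 42.1, 43.6, 53.4 and 14.7 CPM at 12 months (log2 fold change -1.96 ± 0.25, edgeR adjusted p = 5.1e-07). Its value in 12-month-old mouse 5 equalled that of the highest 14-month-old mouse to the digits shown. Ppargc1b, a co-activator of mitochondrial genes, had 18.5 ± 3.39 CPM at 14 months against 40.4 ± 10.1 CPM at 12 months (SD, n = 5 each), with mouse 5 the lowest of its age and above every 14-month-old mouse (log2 fold change -1.13 ± 0.20, edgeR adjusted p = 0.0001). Bdh1, an enzyme of ketone use, had 241, 225, 246, 255 and 246 CPM at 14 months against 285, 323, 316, 388 and 395 CPM at 12 months (log2 fold change -0.49 ± 0.16, edgeR adjusted p = 0.044), and here mouse 5 was the highest of all. None of the 27 enzymes and carriers of fatty acid oxidation was called by edgeR (median 0.04) or limma-voom, while DESeq2 called 1 lower and 3 were lower at an unadjusted p under 0.05. Without 12-month-old mouse 5, edgeR called 2 of them lower. The PPAR count was 2 without 12-month-old mouse 5 and with the rRNA covariate.

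Irs1, the docking protein of the insulin receptor, was also lower and had 9.00, 9.37, 11.8, 11.8 and 8.62 CPM at 14 months, against 45.6, 40.9, 31.6, 51.0 and 13.7 CPM at 12 months (log2 fold change -1.86 ± 0.25, edgeR adjusted p = 7.4e-07). Igf1r, the receptor of insulin-like growth factor 1, had 23.1 ± 1.98 CPM at 14 months against 34.8 ± 6.12 CPM at 12 months (SD, n = 5 each; log2 fold change -0.60 ± 0.14, edgeR adjusted p = 0.0022), with overlap of the 12-month-old mouse 5 only. Angptl8, an insulin-induced inhibitor of lipoprotein lipase, had 0.222, 0.0876, 0.454, 0.536 and 0.339 CPM at 14 months against 1.83, 1.70, 1.22, 1.11 and 0.830 CPM at 12 months (log2 fold change -2.06 ± 0.34, edgeR adjusted p = 3.4e-05). In these 3 genes, mouse 5 was the lowest of the 12-month-old mice. Of both groups compared, Angptl8 met the filter on low counts only at 12 months, where it was high.

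**Figure D4:**
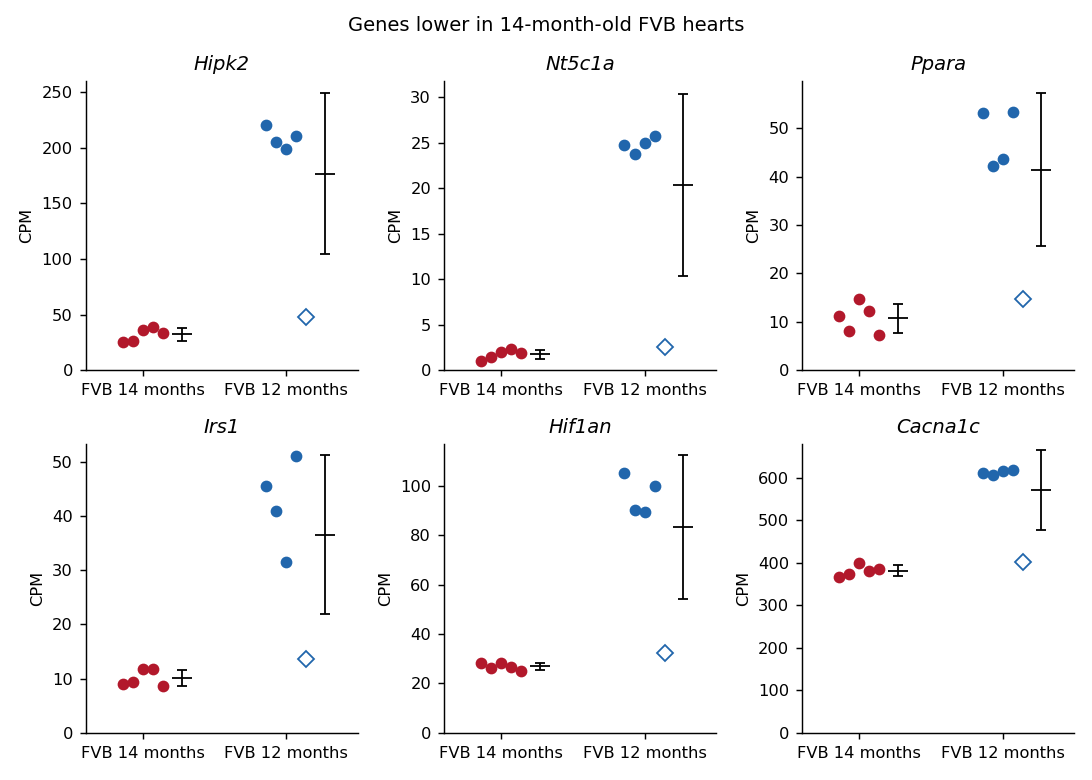
CPM (y axis) of Hipk2, Nt5c1a, Ppara, Irs1, Hif1an and Cacna1c in each FVB mouse aged 14 months (red, left) and 12 months (blue, right), with mean and SD as bars (n = 5 each). The open diamond is 12-month-old mouse 5, which lies next to the 14-month-old mice in all 6 genes, at 48.2 CPM in Hipk2 against 199 to 220.2 CPM in mice 1 to 4.

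Some genes of ion transport were lower. Of 15 calcium handling genes, 3 were lower and none higher (median -0.09), where 5.94% of all genes tested were lower. Cacna1c, the pore of the L-type calcium channel that starts each contraction, had 366, 374, 399.9, 380.5 and 386 CPM at 14 months, against 612, 606, 615, 618 and 402 CPM at 12 months. Mice 1 to 4 at 12 months differed by little from one another and mouse 5 was next to the 14-month-old mice (log2 fold change -0.58 ± 0.10, edgeR adjusted p = 7.2e-05). Slc8a1, the sodium-calcium exchanger, had 42.9, 43.5, 53.3, 45.6 and 31.7 CPM at 14 months against 104, 82.7, 97.4, 82.2 and 56.8 CPM at 12 months (log2 fold change -0.97 ± 0.18, edgeR adjusted p = 0.00018). Ryr2, the release channel of the sarcoplasmic reticulum, had 985, 815, 907, 875 and 637 CPM at 14 months against 1301, 1153, 1278, 1081 and 999 CPM at 12 months (log2 fold change -0.46 ± 0.13, edgeR adjusted p = 0.016), and neither overlapped. Of 18 ion channels, 4 were lower and none higher (median -0.22), beside the same 5.94% of all genes. Kcnj2, a chief channel of the resting potential, had 33.6, 15.1, 29.2, 24.1 and 15.4 CPM at 14 months against 60.3, 46.3, 45.9, 30.4 and 25.5 CPM at 12 months (log2 fold change -0.83 ± 0.24, edgeR adjusted p = 0.018), and Kcnj5 was also called. Kcna1, a channel of nerve axons and no member of that list, had 0.208 ± 0.112 CPM at 14 months against 1.07 ± 0.415 CPM at 12 months (SD, n = 5 each; log2 fold change -2.31, edgeR adjusted p = 0.00013). It was the only call among 10 Schwann cell and neuron markers tested, of which 7 had a positive log2 fold change (median 0.26).

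The count of ion channels was 4 also without 12-month-old mouse 5, but 1 without 14-month-old mouse 2 or 5, 2 without 12-month-old mouse 1, and 1 in the 10 libraries alone and with the rRNA covariate. Cacna1c stood at -0.43 (edgeR adjusted p = 0.029) with this covariate. Slc8a1 (-0.61, edgeR adjusted p = 0.081) and Ryr2 (-0.39, edgeR adjusted p = 0.19) were not called with it. Of 16 basement membrane genes, Lamb1, Agrn and Nid1 were lower (median -0.07), against the 5.94% of all genes. Lamb1, a laminin chain, had 53.2, 43.1, 50.8, 56.2 and 37.7 CPM at 14 months against 81.8, 78.1, 82.9, 82.4 and 60.2 CPM at 12 months (log2 fold change -0.68, edgeR adjusted p = 0.00088), with 12-month-old mouse 5 below its group and above all 14-month-old mice. None of the 16 was called with the rRNA covariate. Of 28 genes of vascular signalling, the VEGF receptors Flt1 and Kdr and the co-receptor Nrp1 were lower, and Vegfd and Hes1 higher. Of all genes, 5.94% were lower and 3.07% higher. Flt1 had 106, 88.2, 112, 99.3 and 71.0 CPM at 14 months against 134, 125, 132, 156 and 125 CPM at 12 months (log2 fold change -0.50, edgeR adjusted p = 0.0024), and the lower count was 5 without 12-month-old mouse 5 and 1 with the rRNA covariate.

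Atf6, a sensor of unfolded proteins in the endoplasmic reticulum, was also lower and had 92.3, 75.6, 87.4, 93.7 and 72.3 CPM at 14 months against 159, 146, 153, 129 and 102 CPM at 12 months (log2 fold change -0.71 ± 0.11, edgeR adjusted p = 7.3e-06). Tep1, a component of telomerase and vault particles, had 7.67, 7.18, 8.25, 8.79 and 6.34 CPM at 14 months against 21.6, 18.6, 19.9, 19.0 and 10.3 CPM at 12 months (log2 fold change -1.24 ± 0.15, edgeR adjusted p = 2.2e-07). Pdk1, a kinase that holds back pyruvate dehydrogenase, had 147, 116, 136, 142 and 97.1 CPM at 14 months against 265, 222, 225, 185 and 124 CPM at 12 months (log2 fold change -0.68, edgeR adjusted p = 0.0014). Rbm20, the splicing factor of titin, had 152 ± 16.3 CPM at 14 months against 219 ± 36.6 CPM at 12 months (SD, n = 5 each; log2 fold change -0.53, edgeR adjusted p = 0.001). Srsf6, another splicing factor, was higher and had 86.3 ± 3.64 CPM at 14 months against 67.7 ± 6.13 CPM at 12 months (SD, n = 5 each; log2 fold change 0.35, edgeR adjusted p = 0.0076). In Tep1, Pdk1 and Rbm20 12-month-old mouse 5 was again the lowest of its group.

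The lower DEGs were unlike the rest in kind, and the lower genes in length. Of the 185 lower DEGs, 53.5% were protein-coding, against 86.3% of the 95 higher DEGs and 88.4% of all genes tested. Unconfirmed transcripts (TEC in the annotation) made up 26 of the lower DEGs (14.1%) and antisense transcripts 24 (13.0%), against 1.58% and 2.23% of all genes, and no higher DEG was a TEC. The 898 genes lower at an adjusted p alone were closer to all genes in kind, with 85.6% protein-coding, 3.12% TEC and 4.68% antisense. Among protein-coding genes called at an adjusted p under 0.05, the median exonic length was 8303 bases for lower, 3434 bases for higher and 4520 bases for all genes, and the median span on the chromosome was 65.1, 15.3 and 24.9 kb in that order. Among protein-coding DEGs, these medians were 6313 bases and 42.4 kb for lower and 2895 bases and 10.5 kb for higher genes. Gm10524, a TEC gene, had 6.44, 4.12, 8.85, 8.26 and 4.99 CPM at 14 months against 31.9, 35.1, 32.5, 35.9 and 12.8 CPM at 12 months (log2 fold change -2.20 ± 0.21, edgeR adjusted p = 2.8e-10). 4632404M16Rik, annotated inside an intron of another gene, had 0.556, 0.525, 0.454, 0.643 and 0.484 CPM at 14 months against 13.0, 10.9, 9.96, 6.15 and 0.913 CPM at 12 months (log2 fold change -3.94 ± 0.43, edgeR adjusted p = 1.9e-08). 1700007J10Rik, a processed transcript, had 0.421 ± 0.230 CPM at 14 months against 4.10 ± 2.01 CPM at 12 months (SD, n = 5 each; log2 fold change -3.28 ± 0.38, edgeR adjusted p = 7.8e-08). Whether the counting used strand is not stated in the sources read, so that counts of antisense and overlapping transcripts are uncertain. Across whole libraries, TEC genes took 0.0449 to 0.0614% of counts at 14 months, against 0.0626 to 0.0764% in 12-month-old mice 1 to 4 and 0.050% in mouse 5. Antisense genes took 0.0942 to 0.101% at 14 months, against 0.110 to 0.125% in 12-month-old mice 1 to 4 and 0.0934% in mouse 5. The part of these shares and of gene length in the calls was not tested.

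Set beside younger FVB mice, the 14-month levels of the lower DEGs were by median nearer to those of 10 months than to those of 8 months. These genes were chosen for their difference from the 12-month-old mice, so that their distance from 12 months was set by that choice. The comparisons with 10 and with 8 months share the 14-month-old mice with the one above, so that their values are given side by side only. At 14 against 10 months, 18 genes (0.119%) were DEGs, and at 14 against 8 months, 212 (1.40%). At an adjusted p alone, 22 genes (0.145%) were higher and 23 (0.152%) lower against 10 months, and 628 (4.15%) higher and 820 (5.42%) lower against 8 months. Of the 185 genes lower at 14 against 12 months, 1 was called lower against 10 months and 106 against 8 months, with medians of -0.39 and -0.99. Of the 95 higher genes, 5 were called higher against 10 months and 31 against 8 months, with medians of 0.69 and 0.83. By list, no MHC class I, MHC class II, interferon, NK or immediate early gene was called higher against 10 months, and 2 of 10 T cell markers were. Against 8 months, 2 of 19 class I, 3 of 8 class II, 1 of 10 T cell and 7 of 24 immediate early genes were higher. No interferon or NK gene was called against 8 months.

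Hipk2 averaged 247 ± 44.0, 118 ± 5.84, 44.9 ± 7.04, 177 ± 72.2 and 32.1 ± 5.96 CPM at 4, 8, 10, 12 and 14 months (SD, n = 5 each). It was thus high at 4 months and in most 12-month-old mice and low at 10 and 14 months, with 14-month log2 fold changes of -0.48 against 10 months (edgeR adjusted p = 0.5) and -1.88 against 8 months (adjusted p = 3.7e-07). Ppara averaged 55.9 ± 8.71, 24.0 ± 3.15, 12.6 ± 4.15, 41.4 ± 15.8 and 10.7 ± 3.04 CPM at 4, 8, 10, 12 and 14 months (SD, n = 5 each), in the same order. The share of the rRNA gene was 1.50 to 2.89% at 4 months, 0.947 to 1.79% at 8 months and 0.438 to 1.27% at 10 months, so that it too was high where Hipk2 was high. Cd74 averaged 131 ± 54.2, 207 ± 96.6, 265 ± 76.6, 139.8 ± 34.3 and 417 ± 168 CPM at 4, 8, 10, 12 and 14 months (SD, n = 5 each), with the 14-month-old mice highest by mean and overlapping with those of 10 and 8 months (0.65 against 10 months, edgeR adjusted p = 0.47, and 1.01 against 8 months, adjusted p = 0.02). Jun averaged 62.7 ± 14.2, 50.6 ± 8.32, 91.2 ± 26.0, 58.7 ± 8.10 and 118 ± 17.2 CPM at 4, 8, 10, 12 and 14 months (SD, n = 5 each), and 14-month-old mice were above every 8-month-old mouse but not above every 10-month-old mouse (0.37 against 10 months, edgeR adjusted p = 0.52, and 1.22 against 8 months, adjusted p = 1.1e-05). Cd8a averaged 0.326 ± 0.255, 0.488 ± 0.165, 0.470 ± 0.431, 0.741 ± 0.361 and 2.85 ± 1.98 CPM at 4, 8, 10, 12 and 14 months (SD, n = 5 each) and was called against both ages (2.49 against 10 months, edgeR adjusted p = 0.018, and 2.52 against 8 months, adjusted p = 0.0019), as Runx3 was (1.21 against 10 months, edgeR adjusted p = 0.022, and 1.32 against 8 months, adjusted p = 0.00085).

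**Figure D5:**
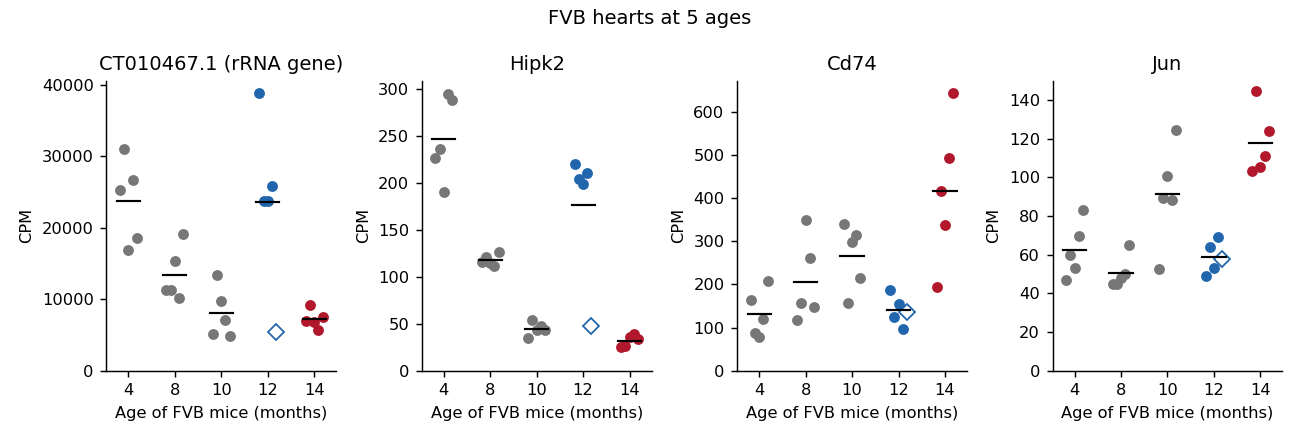
CPM (y axis) of the rRNA gene CT010467.1, Hipk2, Cd74 and Jun in each FVB mouse at 4, 8, 10, 12 and 14 months (x axis), with group means as lines (n = 5 each), 14 months in red, 12 months in blue and 12-month-old mouse 5 as an open diamond. The rRNA gene and Hipk2 are high at 4 months and in 12-month-old mice 1 to 4 and low at 10 and 14 months, whereas Cd74 and Jun have their highest means at 14 months.

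Between the same ages in Tgαq*44 mice, 96 genes (0.635%) were DEGs, and 212 (1.40%) were higher and 281 (1.86%) lower at an adjusted p alone. The difference of the change between the strains passed the test in 193 genes (1.28%), in 42 of the 185 lower and 7 of the 95 higher FVB DEGs. The tested difference is the FVB change minus the Tgαq*44 change, and it shares the FVB mice with the comparison above. Hipk2 had 104 ± 34.9 CPM at 14 months against 189 ± 27.9 CPM at 12 months in Tgαq*44 mice (SD, n = 5 each), a log2 fold change of -0.87 that was called too (edgeR adjusted p = 0.018), and the difference was -1.60 (edgeR adjusted p = 0.0043). Nt5c1a had 5.54 ± 2.78 CPM at 14 months against 8.65 ± 1.92 CPM at 12 months in Tgαq*44 mice, and the difference was -2.91 (edgeR adjusted p = 0.0028). Cacna1c had 424 ± 44.7 CPM at 14 months against 389.9 ± 34.7 CPM at 12 months in Tgαq*44 mice, where its mean was the higher one at 14 months, with a difference of -0.70 (edgeR adjusted p = 0.0059). The rRNA share in Tgαq*44 mice was 0.579 to 1.88% at 14 months and 1.89 to 4.22% at 12 months.

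Ctgf had 827 ± 83.4 CPM at 14 months against 991 ± 73.2 CPM at 12 months in Tgαq*44 mice, both means above every FVB mouse of these ages (at most 294 CPM), and the difference of the change was 1.65 (edgeR adjusted p = 0.0028). Frzb (1.08, edgeR adjusted p = 0.013) and Sfrp2 (1.38, edgeR adjusted p = 0.039) also had a larger change in FVB than in Tgαq*44 mice, while Wif1 did not pass (-0.48, edgeR adjusted p = 0.45) and was called higher at 14 months in Tgαq*44 mice as well, with a log2 fold change of 1.30 (edgeR adjusted p = 5.0e-05). Timp1, an inhibitor of matrix proteases, had 3.98 ± 0.820 CPM at 14 months against 3.22 ± 1.02 CPM at 12 months (SD, n = 5 each) in FVB mice and 16.6 ± 4.11 CPM at 14 months against 40.8 ± 11.6 CPM at 12 months in Tgαq*44 mice, where it was lower at 14 months (log2 fold change -1.30, edgeR adjusted p = 0.0017), and the difference was 1.61 (edgeR adjusted p = 0.033). No MHC class I, MHC class II, interferon, T cell or NK gene of the lists passed edgeR's test of the difference, and none was called between these ages in Tgαq*44 mice. At an unadjusted p under 0.05, the change was larger in FVB mice for 11 of 19 class I, 4 of 8 class II, 18 of 45 interferon, 2 of 10 T cell and none of 4 NK genes. Between the ages in Tgαq*44 mice, 2 class II genes and 1 interferon gene were higher and 2 interferon genes lower at that level. DESeq2 and limma-voom were run only for the contrast of FVB ages. Cd74 had 77.7 ± 13.8 CPM at 14 months against 48.5 ± 24.5 CPM at 12 months in Tgαq*44 mice and a difference of 0.89 (edgeR adjusted p = 0.3).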

How the data were processed

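The authors extracted RNA from the cardiac apex, prepared poly(A)-selected libraries, trimmed the reads (Cutadapt), checked them (FastQC), aligned them to GRCm38.p6 (STAR) and deposited HTSeq counts per gene without normalisation. For these tools, the sources read state no version. Comparison tables made by the authors, with fold changes and p-values, were not used. Of 54532 gene identifiers, 54495 matched GENCODE M21.

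Genes over 0.5 CPM in more than 3 libraries of a group were kept. One edgeR (4.0.16) model of the 10 groups of strain and age held all 50 libraries with TMM factors, and p-values were adjusted by Benjamini-Hochberg over all genes. The standard error of a change was taken as its size divided by the square root of F. R 4.3.3, limma 3.58.1, DESeq2 1.42.0, Python 3.11.15, pandas 2.3.3 and matplotlib 3.10.9 were used, and the fit was tested on simulated data. No pair of replicates was a duplicate (chi-square per degree of freedom at least 9.62 over 20 pairs).

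Named genes were up to 12 non-overlapping protein-coding DEGs per direction by fold change (mean of at least 1 CPM), the 8 smallest p per direction, 8 ageing genes the study names as activated early in Tgαq*44 mice and up to 3 called members per list (66 lists) and direction. Members and lists were chosen with earlier results of these data known. Some named genes are not reported here. Of all 115, 77 matched a RefSeq promoter window. Alternatives were other tools, scalings, filters, subsets of libraries, each mouse left out and the mouse number as a block.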

Additional observations from a re-analysis of the deposited data

Results flagged for a closer look

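In 24 of 232 groups of 5 values examined (the named genes reported and the library measures at either age), 1 mouse stood far from the other 4 by Dixon's criterion, which chance reaches in about 1 of 20 groups, and 15 of the 24 were 12-month-old mouse 5. This mouse was far below its group in Hipk2 (48.2 CPM), Gm10524 (12.8 CPM), Hif1an (32.2 CPM), Nt5c1a (2.57 CPM), Tep1 (10.3 CPM), Cacna1c (402 CPM), Lamb1 (60.2 CPM), Rbm20 (156 CPM) and Col14a1 (23.6 CPM). It was far above its group in Spint2 (37.8 CPM), F8a (18.8 CPM), Ndufa8 (208 CPM), Frzb (23.4 CPM), Srsf6 (78.6 CPM) and the share of haemoglobin transcripts (0.115%).

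At 14 months, mouse 1 stood apart by low Itgal (4.61 CPM) and by a high haemoglobin share (0.307%). High values at 14 months were those of Plvap (26.4 CPM) and Sfrp2 (4.16 CPM) in mouse 5 and of Il1b (3.11 CPM) in mouse 4. At 12 months, mouse 4 was low in Ankrd1 (804 CPM) and high in Cldn5 (21.3 CPM), mouse 3 was low in Tapbp (48.7 CPM) and mouse 1 was high in Grap2 (0.672 CPM).

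The change from 12 to 14 months differed between the strains in 21 named genes by edgeR's test of the difference. FVB minus Tgαq*44, on the log2 scale, it was negative for Hipk2 (-1.60), Gm10524 (-2.10), 4632404M16Rik (-2.73), Hif1an (-1.25), Nt5c1a (-2.91), 1700007J10Rik (-2.91), Tep1 (-0.97), Ppara (-1.38), Sned1 (-1.39), Atf6 (-0.61), Angptl8 (-1.67), Cacna1c (-0.70), Kcna1 (-2.60) and Kcnj5 (-0.67). It was positive for Ctgf (1.65), Spint2 (0.75), Frzb (1.08), Plvap (1.29), Sfrp2 (1.38), Ier3 (1.19) and Timp1 (1.61).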

How the results depend on the processing

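Against 280 DEGs (95 higher, 185 lower), DESeq2 gave 283, limma-voom 254, DESeq2-type size factors 281, no filter 284, filterByExpr 276, the 25 FVB libraries alone 235 and the 10 libraries alone 215. A mean of at least 5 CPM left 90 DEGs (32 higher, 58 lower). With the rRNA share as a covariate, there were 59 (27 and 32) in 50 libraries and 1 (0 and 1) in the 10 libraries, where 1177 genes had an unadjusted p under 0.05. At an adjusted p alone, the 464 higher genes became 193 in the 10 libraries, 230 in the 25 FVB libraries, and 70 and 0 with the covariate in 50 and 10 libraries, and the 898 lower genes became 550 in the 10 libraries, and 209 and 1 with the covariate. Leaving out 1 mouse gave 199 to 419 DEGs, 58 (without 14-month-old mouse 5) to 136 higher, 135 to 283 (without 12-month-old mouse 5) lower, and, at an adjusted p alone, 216 to 720 higher and 632 to 1189 lower. Differences of library measures, 14 minus 12 months, ranged from -0.9 to 2.13 M counts, from -0.722 to 0.9 percentage points of mitochondrial and from 0.00794 to 0.0715 of haemoglobin transcripts. With the covariate, Adra1a (0.04, in 10 libraries), Timp1 (-0.24, in 10 libraries) and Cilp (0.03) changed sign. The cause of these changes was not tested.

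The mouse numbers do not pair the mice: deviations of same-numbered mice correlated at 0.29, 0.04, 0.34, -0.13 and 0.14. With the number as a replicate block there were 233 DEGs, 4 class I, 1 NK, 13 immediate early and 5 PPAR calls, and 7 of the 109 called named genes were no longer called. In lowly expressed genes (under about 1 CPM, such as Gzmb) counts are few and calls rest on single mice.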
